A study of Homo sapiens with 12 samples.

Results

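A set of 9 genes that carry glucose into the cell and commit it to glycolysis was followed in LN229, an established human glioblastoma cell line, under 3 supplies of carbon. They are the transporters SLC2A1, SLC2A3, SLC2A10 and SLC2A12, the hexokinases HK1 and HK2, and the bifunctional enzymes PFKFB2, PFKFB3 and PFKFB4. They were taken by gene symbol, with 1 transcript per gene, and make up 9 of the 22257 genes in the count files. All 9 passed the filter on low counts, as did 14416 genes in all. The cells had been grown in 6-well dishes and then kept for 24 hours in RPMI medium with 10% dialyzed serum. Glucose was 10 mM in one medium and 1 mM in the others, of which one also held 5 mM acetate, and each medium had 4 libraries. No genetic change or drug was named for any group. The comparisons ask how RNA for glucose uptake and capture differs with glucose supply, and whether acetate, another carbon source, alters it when glucose is low.

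As background, glucose enters most cells by facilitated diffusion through the GLUT proteins, which the SLC2A genes encode. A hexokinase then phosphorylates it to glucose 6-phosphate, which cannot leave through these carriers. Further down, phosphofructokinase is switched on by fructose 2,6-bisphosphate, which the PFKFB enzymes make with a kinase domain and break down with a phosphatase domain. SLC2A1, HK2, PFKFB3 and PFKFB4 are known from other work as targets of hypoxia-inducible factors, which are often active in glioblastoma, and SLC2A1 and HK2 also as targets of MYC.

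The start-site windows of 4 members are shown because these genes were called in all 3 comparisons below, and they include members whose levels went opposite ways. The sequences are from RefSeq on GRCh38.p14 and run from 250 bases before to 50 bases after an annotated start, 5′ to 3′ on the gene's strand. Capitals mark any match, on either strand, to ACGTG, the core of the hypoxia response element, or to CACGTG, the E-box bound by MYC and other factors. Each CACGTG contains ACGTG on both strands.
SLC2A1 (chr1:42958819-42959118, minus strand): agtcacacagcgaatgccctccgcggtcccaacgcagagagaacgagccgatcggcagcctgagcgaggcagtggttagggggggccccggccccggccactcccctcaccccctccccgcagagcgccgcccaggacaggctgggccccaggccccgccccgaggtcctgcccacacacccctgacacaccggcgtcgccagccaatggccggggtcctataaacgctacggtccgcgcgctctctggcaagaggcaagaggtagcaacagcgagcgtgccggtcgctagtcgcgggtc
HK2 (chr2:74833877-74834176, plus strand): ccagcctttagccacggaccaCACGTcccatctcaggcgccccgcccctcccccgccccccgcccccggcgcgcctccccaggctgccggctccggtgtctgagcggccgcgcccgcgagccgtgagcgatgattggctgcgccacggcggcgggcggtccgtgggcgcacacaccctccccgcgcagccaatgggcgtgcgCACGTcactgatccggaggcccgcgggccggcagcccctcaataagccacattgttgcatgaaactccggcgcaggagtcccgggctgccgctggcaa
PFKFB3 (chr10:6202682-6202981, plus strand): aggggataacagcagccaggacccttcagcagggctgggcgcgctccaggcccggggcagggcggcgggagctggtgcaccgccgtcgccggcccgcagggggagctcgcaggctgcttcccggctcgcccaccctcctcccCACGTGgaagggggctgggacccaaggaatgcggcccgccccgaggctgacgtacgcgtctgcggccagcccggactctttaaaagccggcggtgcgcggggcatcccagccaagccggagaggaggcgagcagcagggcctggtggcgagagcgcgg
PFKFB4 (chr3:48556754-48557053, minus strand): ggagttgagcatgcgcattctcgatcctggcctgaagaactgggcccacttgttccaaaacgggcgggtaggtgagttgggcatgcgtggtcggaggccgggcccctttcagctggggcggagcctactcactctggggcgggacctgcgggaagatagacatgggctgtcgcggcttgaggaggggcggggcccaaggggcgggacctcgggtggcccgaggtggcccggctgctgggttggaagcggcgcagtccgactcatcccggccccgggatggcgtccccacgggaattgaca
PFKFB3 had 1 CACGTG, which began 108 bases before the start, and HK2 had ACGTG on the opposite strand, beginning 229 and 48 bases before it. The SLC2A1 and PFKFB4 windows held neither motif. The annotated start lies 308 bases from that of the counted transcript for SLC2A1, 146 for HK2, 1 for PFKFB3 and 87 for PFKFB4. The whole SLC2A1 window lies downstream of the counted transcript's start, so it shows none of the bases before that start. A second PFKFB3 window, chr10:6144671-6144970, held neither motif. A second HK2 window, whose start lies 1189 bases from that of the counted transcript, held CACGTG at 194 and 149 bases before its start. Among all 35116 human windows of 300 bases, 7.26% held CACGTG and 21.4% held ACGTG. A match is a description of these letters, not a binding site. For 7 of the 9 members a window was at hand, and SLC2A3 and PFKFB2 are named only.

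Levels are in CPM, counts per megacount after scaling by TMM, which puts the middle of the genes on a common level in every library. Fold changes are on the log2 scale with their standard error (SE). A gene is called where the Benjamini-Hochberg adjusted p of edgeR's quasi-likelihood test over 14416 genes is under 0.05. With 1 transcript per gene, a library held between 24.4 M and 27.2 M counts (M, mega), and 44.3 M to 48.9 M over all transcript rows, and the biological coefficient of variation was 8.51%. Markers of astrocytes and glioma were present at a summed 5801 to 5923 CPM at 10 mM glucose, 5912 to 6427 CPM with acetate and 6288 to 7641 CPM at 1 mM glucose, mostly from VIM. Members went both ways. VIM averaged 3768 CPM at 10 mM glucose and 5249 CPM at 1 mM, while NES had a mean of 1053 CPM at 10 mM and 452 CPM at 1 mM, S100B 186 CPM at 10 mM and 86.6 CPM at 1 mM, and SOX2 75.4 CPM at 10 mM and 14.3 CPM at 1 mM. GFAP, the intermediate filament of astrocytes, was near 1 CPM and AQP4, their water channel, at a mean of 0.13 CPM or less. Of 6 blood and endothelial markers 1, the lysosomal CD68, reached 1 CPM, and the list summed to 18.9 to 23.1 CPM at 10 mM glucose, 63.0 to 70.2 CPM with acetate and 54.7 to 65.0 CPM at 1 mM glucose. Neuron markers summed to 280 to 321 CPM at 10 mM glucose, 310 to 339 CPM with acetate and 351 to 426 CPM at 1 mM glucose, and RBFOX3, a defining one, was at a mean of 0.39 CPM or less. TUBB3 made up most of this sum, SYT1 averaged 26.6 CPM at 10 mM glucose and 114 CPM at 1 mM, and SNAP25 16.5 CPM at 10 mM glucose and 8.95 CPM at 1 mM. The part of these markers in the results was not tested.

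Before the results, 2 libraries stood apart from the others of their groups. In replicate 3 at 1 mM glucose and replicate 1 with acetate, the deviation of genes from their mean over all 12 libraries followed transcript length. The Spearman correlations across genes were -0.49 and -0.48, and differences between the media also enter them. In the other 10 libraries these correlations ran between -0.18 and 0.23. PFKFB2 deviated from its group mean by -0.39 and -0.33 in those libraries on the log2 scale, and HK2 by -0.27 and -0.16. Results that rest on these libraries are also given without them.

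**Figure D1:**
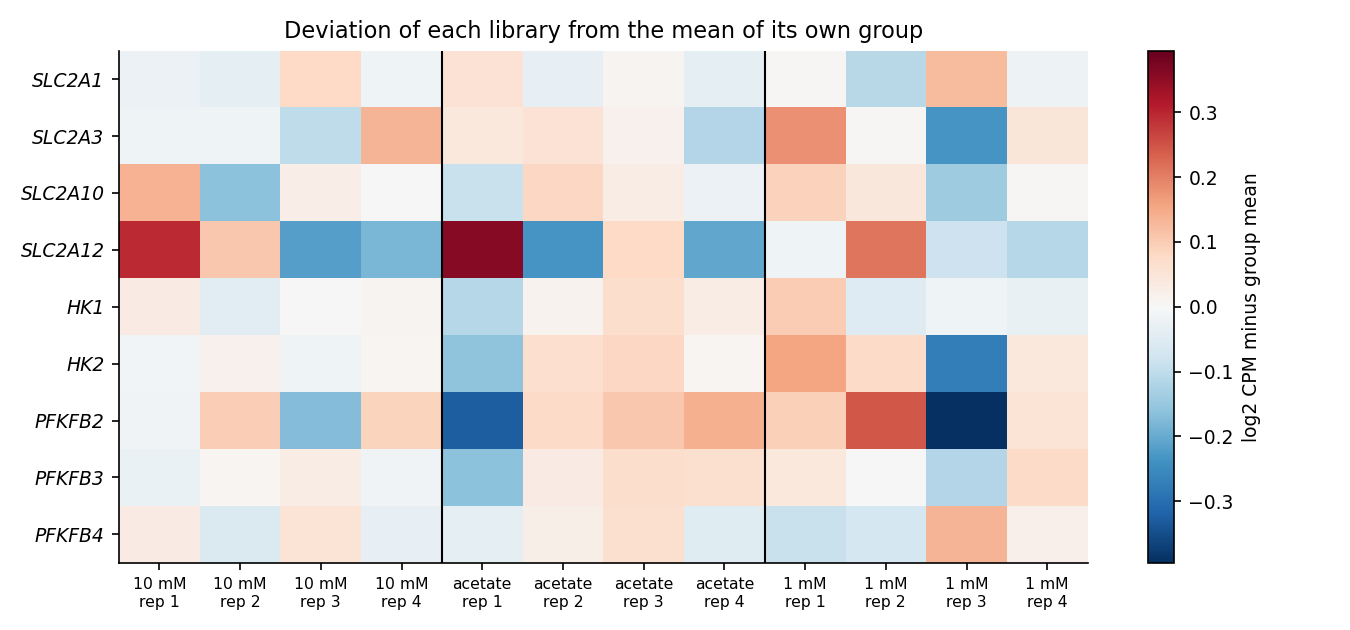
Deviation of each gene's log2 CPM from its group mean, by gene and by each of the 12 libraries. In replicate 3 at 1 mM glucose and replicate 1 with acetate the lowest values are those of PFKFB2, at -0.39 and -0.33.

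At 10 mM glucose the main transporters and HK2 were lower than at 1 mM glucose, while HK1, PFKFB3 and PFKFB4 were higher. Of the 9 genes, 7 were called, 3 higher and 4 lower, and the groups of 7 did not overlap. Much of the transcriptome differed between the libraries of these media: 67.5% of all genes tested were called, 33.7% higher and 33.8% lower, and 61.5% did not overlap. The share of members called was therefore near that of genes at large. The median log2 fold change was -0.29 over the 9 genes and 0.00 over all genes. Scaling by library totals in place of TMM moved the median of all genes to 0.14 and the higher share of calls to 63.3%, against 49.9%, but left each of the 7 calls and its direction in place.

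With acetate at 1 mM glucose, 5 of the 9 genes were called against 1 mM glucose alone. SLC2A1, SLC2A3, HK2 and PFKFB3 were lower and PFKFB4 was higher, and the groups of 4 did not overlap. Over all genes 13.7% were called, 6.65% higher and 7.09% lower, and 15.6% did not overlap. The median log2 fold change was -0.15 over the 9 genes and 0.00 over all genes. Scaling by library totals put the higher share of calls at 65.2%, against 48.4%, and ended the call for PFKFB3 alone. Both comparisons share the 4 libraries at 1 mM glucose, so their values are given side by side and no agreement between them is drawn. At 10 mM glucose against acetate, 8 of the 9 genes were called, 3 higher and 5 lower, with no overlap for 8, and SLC2A12 was not called. Over all genes 62.8% were called, 31.0% higher and 31.8% lower, and 61.0% did not overlap; the median of the 9 was -0.31, and library totals moved that of all genes to 0.10 and the higher share to 60.8%, against 49.4%.

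**Figure D2:**
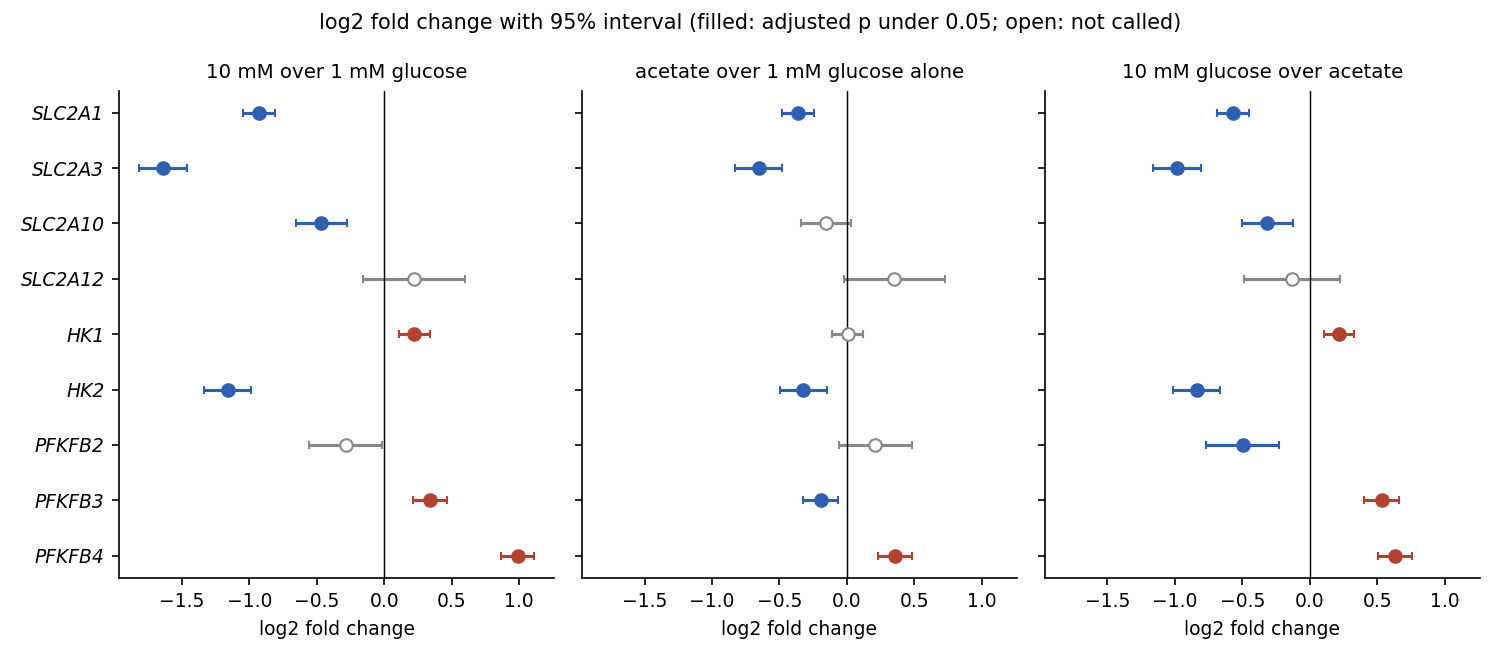
Log2 fold change of the 9 genes (rows) in the 3 comparisons (10 mM or acetate over 1 mM glucose, and 10 mM over acetate), with 95% intervals. SLC2A3 lies farthest from 0 at -1.64, -0.65 and -0.99, and PFKFB4 lies above 0 in each at 0.99, 0.36 and 0.63.

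SLC2A1 encodes GLUT1, the carrier for basal glucose uptake in most cells and at the blood-brain barrier. It had 195.8, 193.5, 210.1 and 196.3 CPM at 10 mM glucose, 306, 288, 297 and 288 CPM with acetate, and 379, 350.0, 412 and 372 CPM at 1 mM glucose. The 3 groups did not overlap, and the level with acetate lay between the others. SLC2A1 fell 1.90-fold at 10 mM against 1 mM glucose (log2 fold change -0.93 ± 0.06 SE, adjusted p = 2.1e-09). It fell 1.28-fold with acetate (-0.36 ± 0.06, adjusted p = 7.5e-04), and it was lower at 10 mM glucose than with acetate (-0.57 ± 0.06, adjusted p = 5.5e-07).

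SLC2A3 encodes GLUT3, a carrier with high affinity for glucose that is best known from neurons. Its levels were 18.04, 18.04, 17.02 and 20.01 CPM at 10 mM glucose, 37.18, 37.58, 36.61 and 33.38 CPM with acetate, and 64.21, 56.91, 48.20 and 58.61 CPM at 1 mM glucose. Every library at 10 mM glucose was below every library with acetate, and these in turn were below every library at 1 mM glucose, where replicate 3, which stood apart, was the lowest. SLC2A3 had the lowest fold change of the 9 genes, a fall of 3.12-fold for glucose (-1.64 ± 0.08, adjusted p = 3.4e-10). With acetate it fell 1.57-fold (-0.65 ± 0.08, adjusted p = 1.5e-04), and at 10 mM glucose it was below the acetate group (-0.99 ± 0.08, adjusted p = 1.2e-07). SLC2A14, a near-identical copy of SLC2A3, had 1 count in each library at 10 mM glucose, 0 or 1 with acetate added and 0 to 4 at 1 mM glucose. Reads that match both copies could have been counted for either.

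SLC2A10 encodes GLUT10, which sits mainly in internal membranes and is mutated in arterial tortuosity syndrome. It was low, at 4.68, 3.81, 4.34 and 4.26 CPM at 10 mM glucose, 4.99, 5.61, 5.41 and 5.22 CPM with acetate, and 6.27, 6.08, 5.34 and 5.91 CPM at 1 mM glucose. The libraries at 10 mM glucose lay below all the others, while the acetate and 1 mM glucose groups overlapped. It fell for glucose (-0.47 ± 0.09, adjusted p = 2.9e-04) and was lower at 10 mM glucose than with acetate (-0.31 ± 0.09, adjusted p = 0.0066). Acetate gave no call, with a difference of -0.15 and a 95% interval of -0.34 to 0.03 (adjusted p = 0.268).

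SLC2A12 encodes GLUT12, a carrier studied mostly in muscle, fat and prostate. It rested on 29 to 56 counts per library, as 1.82, 1.60, 1.28 and 1.31 CPM at 10 mM glucose, 2.07, 1.37, 1.70 and 1.40 CPM with acetate, and 1.26, 1.48, 1.21 and 1.18 CPM at 1 mM glucose. All 3 groups overlapped and no comparison called it. At this depth the 95% interval for glucose ran from -0.15 to 0.60, for acetate from -0.02 to 0.73, and between 10 mM glucose and acetate from -0.49 to 0.23. In the GENCODE v29 annotation 1736 of the 4468 exon bases of its transcript lie opposite exons of TBPL1, so without a stated strand setting reads of the pair cannot be told apart. TBPL1, a relative of the TATA-binding protein, had 16.6 ± 1.06 CPM at 10 mM glucose, 25.0 ± 1.93 CPM with acetate and 25.1 ± 0.758 CPM at 1 mM glucose (SD, n = 4 each). No other member's counted transcript shared exon bases with another protein-coding gene there.

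HK1 encodes the hexokinase of brain and red blood cells, present in most tissues. It had 189.6, 179.6, 185 and 187 CPM at 10 mM glucose, 147, 161, 167 and 162 CPM with acetate, and 170.1, 153, 157 and 155 CPM at 1 mM glucose. The libraries at 10 mM glucose were above all 8 others, and the other 2 groups overlapped. HK1 rose 1.17-fold for glucose (0.22 ± 0.05, adjusted p = 0.0018), and its log2 fold change was 0.37 with library totals. It was also higher at 10 mM glucose than with acetate (0.22 ± 0.05, adjusted p = 0.0025). Acetate against 1 mM glucose alone gave 0.01, with an interval of -0.11 to 0.12 (adjusted p = 0.957).

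HK2 encodes the hexokinase of muscle and fat that many tumors carry at high level and that binds mitochondria. Its levels were 126, 129, 125 and 128 CPM at 10 mM glucose, 203, 237, 239.9 and 228 CPM with acetate, and 314, 297, 234 and 290.4 CPM at 1 mM glucose. The libraries at 10 mM glucose were close together and below all others. The acetate and 1 mM glucose groups overlapped through replicate 3 at 1 mM glucose, which stood apart above. HK2 fell 2.24-fold for glucose (-1.16 ± 0.08, adjusted p = 1.1e-08) and was lower at 10 mM glucose than with acetate (-0.84 ± 0.08, adjusted p = 4.7e-07). With acetate it fell by less (-0.32 ± 0.08, adjusted p = 0.0160). Without the 2 libraries that stood apart this last value was -0.35 (adjusted p = 7.6e-06). The acetate call was lost without replicate 1 at 1 mM glucose (-0.27, adjusted p = 0.0594).

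Per length of transcript, the ratio of HK2 to HK1 differed between the media. HK2 stood at 0.428 ± 0.0136 of HK1 at 10 mM glucose, 0.889 ± 0.0264 with acetate added and 1.12 ± 0.126 at 1 mM glucose (ratio of CPM per kb, SD, n = 4 each). The ratios did not overlap between any pair of groups, the lowest at 1 mM glucose being 0.931 in replicate 3 and the highest with acetate 0.922. HK2 made up 29.97% of the summed level of both at 10 mM glucose, 47.0% with acetate added and 52.6% at 1 mM glucose. The sum itself was 73.4 ± 1.04 CPM per kb at 10 mM glucose, 83.6 ± 5.22 with acetate added and 93.2 ± 7.23 at 1 mM glucose. Ratios and sums are given as descriptions with no test, and their size rests on the 3605 bases taken for HK1.

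**Figure D3:**
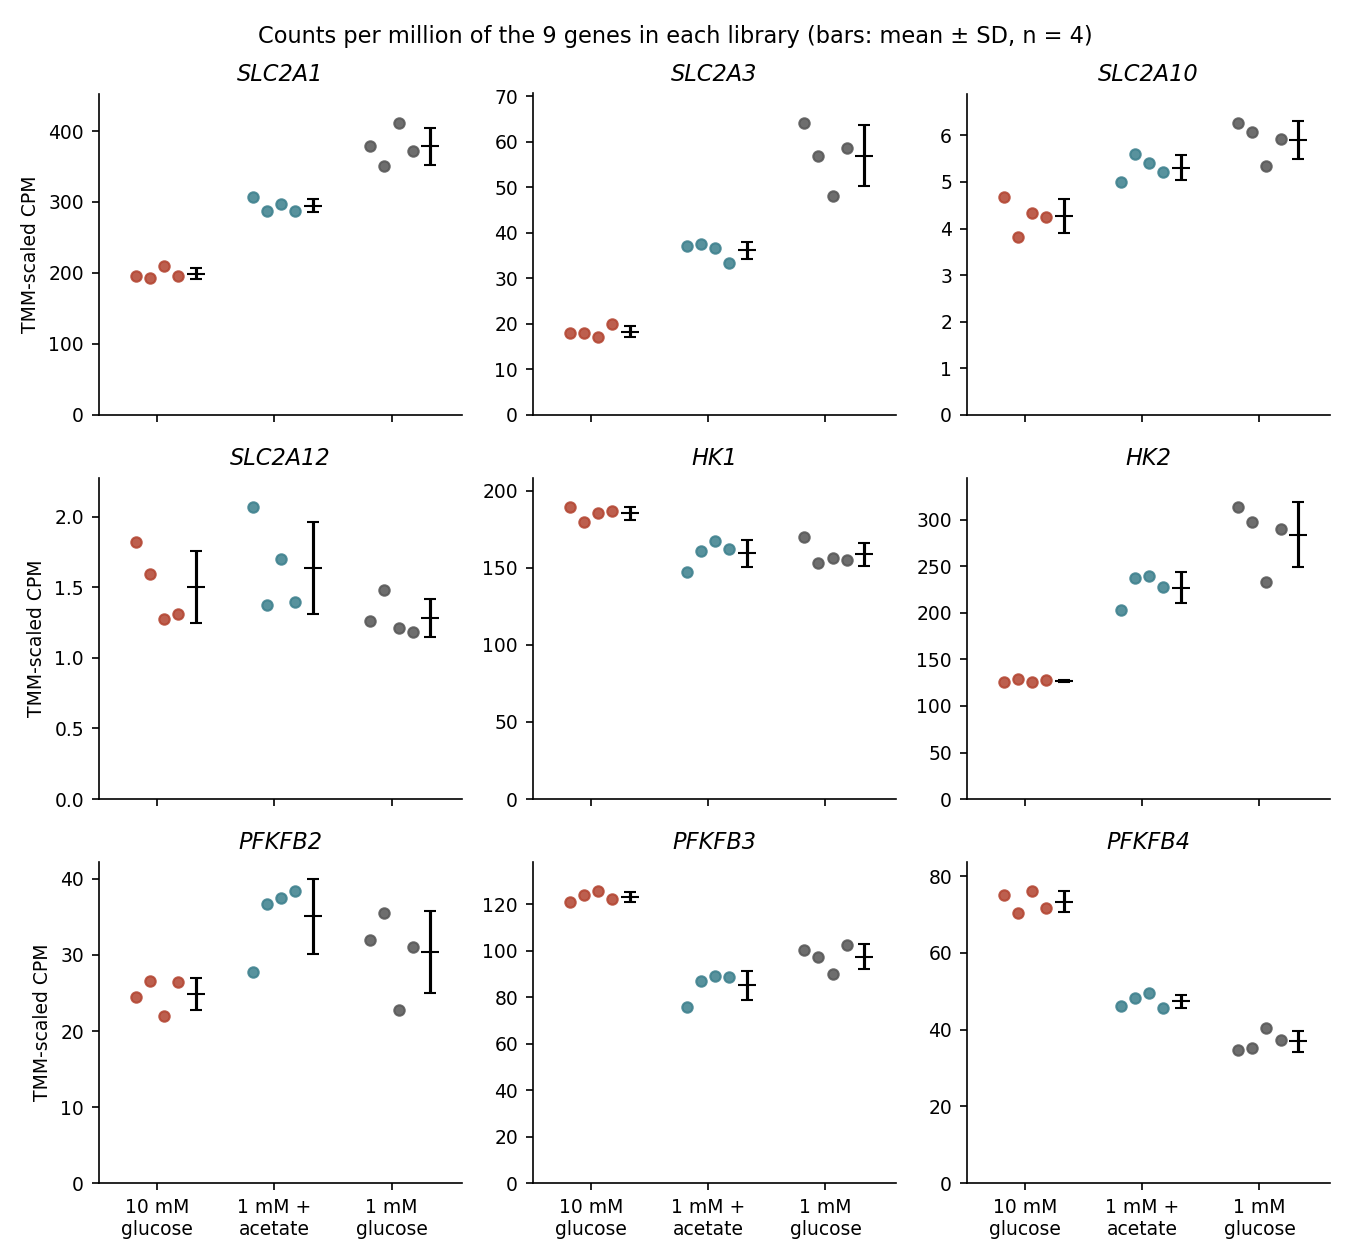
CPM of each of the 9 genes (panels) in the media with 10 mM glucose, acetate, and 1 mM glucose alone, with points for the 4 libraries and bars for the mean and SD. SLC2A1 and SLC2A3 go up from left to right, PFKFB4 goes down, and the acetate group of HK1 lies with 1 mM glucose, at a mean of 159 CPM in both.

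PFKFB3 encodes the isoform with the strongest kinase over phosphatase activity, known from proliferating and tumor cells. It had 121, 124, 126 and 122 CPM at 10 mM glucose, 76.0, 86.9, 89.1 and 88.7 CPM with acetate, and 100.2, 97.3, 89.9 and 102 CPM at 1 mM glucose. The 3 groups did not overlap, although the lowest library at 1 mM glucose and the highest with acetate differed by less than 1 CPM. PFKFB3 rose 1.26-fold for glucose (0.34 ± 0.06, adjusted p = 1.4e-04) and was higher at 10 mM glucose than with acetate (0.53 ± 0.06, adjusted p = 2.2e-06). With acetate it was lower than at 1 mM glucose alone (-0.19 ± 0.06, adjusted p = 0.0433), a call close to the threshold that 15 of 23 alternatives lost (adjusted p 0.0026 to 0.144 over the 23). Without the 2 libraries that stood apart it was -0.18 (adjusted p = 0.0056).

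PFKFB4 encodes an isoform first described in testis and found in many tumors. It had 75.1, 70.5, 76.2 and 71.8 CPM at 10 mM glucose, 46.1, 48.2, 49.4 and 45.8 CPM with acetate, and 34.7, 35.2, 40.5 and 37.4 CPM at 1 mM glucose. None of the groups overlapped, and the order of the media was the reverse of that of SLC2A1. PFKFB4 rose 1.99-fold for glucose (0.99 ± 0.06, adjusted p = 1.7e-09). It rose 1.28-fold with acetate (0.36 ± 0.06, adjusted p = 0.0012) and was higher at 10 mM glucose than with acetate (0.63 ± 0.06, adjusted p = 2.6e-07). Of the 9 genes it alone was called higher with acetate.

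PFKFB2 encodes the heart isoform, whose kinase is activated by phosphorylation through insulin signaling. It had 24.5, 26.5, 22.0 and 26.4 CPM at 10 mM glucose, 27.8, 36.7, 37.5 and 38.4 CPM with acetate, and 32.0, 35.5, 22.8 and 31.1 CPM at 1 mM glucose. Every library at 10 mM glucose was below every library with acetate, and the group at 1 mM glucose overlapped both. PFKFB2 was lower at 10 mM glucose than with acetate (-0.50 ± 0.13, adjusted p = 0.0032). Neither comparison with 1 mM glucose alone was called: 10 mM glucose gave -0.29 (interval -0.56 to -0.01, adjusted p = 0.0591) and acetate 0.21 (interval -0.06 to 0.48, adjusted p = 0.294). The lowest library at 1 mM glucose and the lowest with acetate were those that stood apart. Without both, PFKFB2 was called lower for glucose (-0.40, adjusted p = 1.3e-05) and higher with acetate (0.19, adjusted p = 0.0429).

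PFKFB4 stood at 0.745 ± 0.0274 of PFKFB3 at 10 mM glucose, 0.698 ± 0.0464 with acetate added and 0.476 ± 0.0589 at 1 mM glucose (ratio of CPM per kb, SD, n = 4 each). The 10 mM glucose and acetate groups overlapped in this ratio, and both lay above 1 mM glucose. Without the 2 libraries that stood apart, the acetate group lay at 0.645 to 0.694, below the 0.712 to 0.775 at 10 mM glucose. PFKFB2 stood at 0.128 ± 0.0119 of PFKFB3 at 10 mM glucose, 0.259 ± 0.0192 with acetate added and 0.196 ± 0.0291 at 1 mM glucose. The sum of the 3 isoforms was 51.5 ± 0.654 CPM per kb at 10 mM glucose, 37.2 ± 2.33 with acetate added and 36.3 ± 1.29 at 1 mM glucose. Acetate and 1 mM glucose alone had sums within their spread of each other but split them differently, PFKFB4 holding 35.6% with acetate added and 28.4% at 1 mM glucose. Among the 4 transporters, SLC2A3 stood at 0.0863 ± 0.00803 of SLC2A1 at 10 mM glucose, 0.115 ± 0.00562 with acetate added and 0.142 ± 0.0221 at 1 mM glucose. The acetate and 1 mM glucose groups overlapped in this ratio only through replicate 3 at 1 mM glucose, at 0.110, and the other 3 libraries there lay at 0.148 to 0.159. SLC2A1 held 90.05% of the transporter sum at 10 mM glucose, 88.1% with acetate added and 86.4% at 1 mM glucose.

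**Figure D4:**
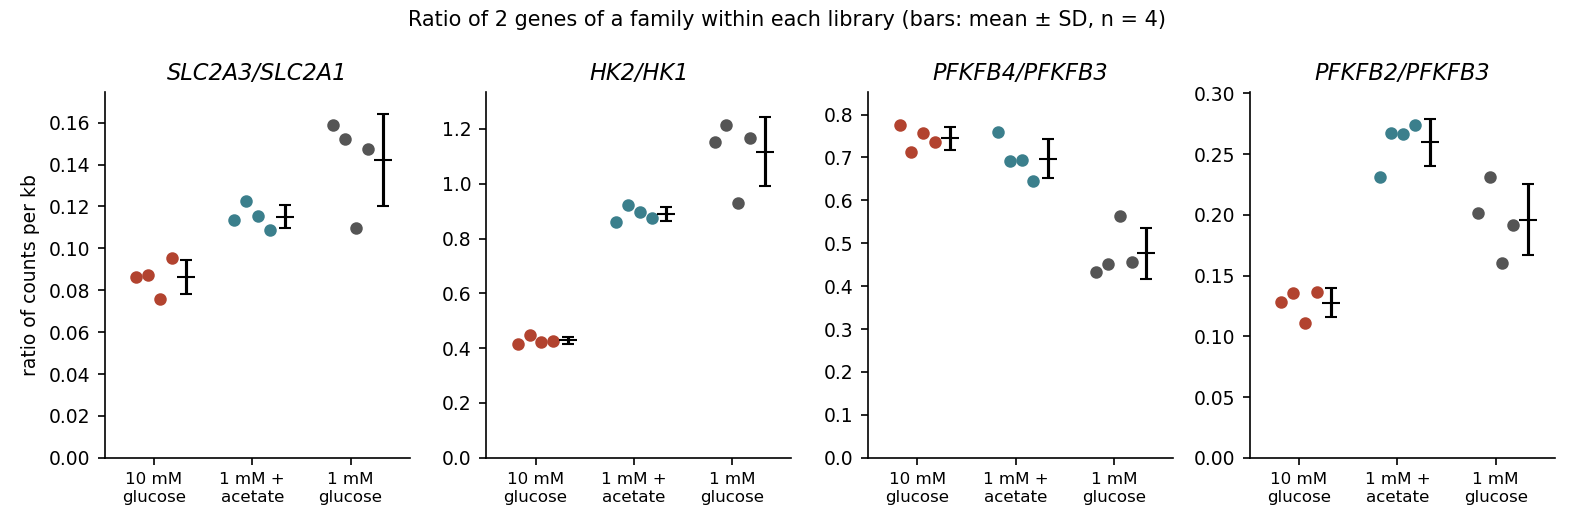
Ratio of CPM per kb between members of a family (panels), with points for the 4 libraries of each medium and bars for the mean and SD. HK2 over HK1 is near 0.43 at 10 mM glucose, 0.89 with acetate added and 1.12 at 1 mM glucose, and PFKFB4 over PFKFB3 is lowest at 1 mM glucose.

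Levels were ranked between genes by the mean CPM per kb of transcript over the 4 libraries of a medium. SLC2A1 came first in each medium, at 54.2 CPM per kb at 10 mM glucose, 80.3 with acetate added and 103 at 1 mM glucose. At 10 mM glucose HK1 followed at 51.4, then PFKFB3 at 27.5, HK2 at 22.0, PFKFB4 at 20.5, SLC2A3 at 4.67, PFKFB2 at 3.51, SLC2A10 at 0.973 and SLC2A12 at 0.336 CPM per kb. With acetate the order was HK1 at 44.2, HK2 at 39.3, PFKFB3 at 19.0, PFKFB4 at 13.2, SLC2A3 at 9.24, PFKFB2 at 4.95, SLC2A10 at 1.21 and SLC2A12 at 0.366. At 1 mM glucose HK2, at 49.2, passed HK1, at 44.0. The libraries of these neighbours overlapped only through replicate 3, which stood apart, at 40.5 for HK2. The order also rests on the 3605 bases taken for HK1, whose other transcripts had nearly the same counts and 3229 to 3961 bases. In the same medium SLC2A3, at 14.6, passed PFKFB4, at 10.3, without overlap. PFKFB3 was at 21.7 there, PFKFB2 at 4.28, SLC2A10 at 1.34 and SLC2A12 at 0.287 CPM per kb. In RNA from whole cultures, fewer cells with a transcript and less of it per cell cannot be told apart.

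The 9 genes had 15 transcripts in the files, 5 for HK1 and 2 each for PFKFB2 and PFKFB3. In every library the other 4 HK1 transcripts had 2 to 10 counts fewer than the one used, and the other PFKFB3 transcript 5 to 23 fewer, so these rows do not separate isoforms. The shorter PFKFB2 transcript had 26.5% to 29.5% of the counts of the longer one at 10 mM glucose, 18.4% to 26.6% with acetate added and 15.6% to 28.7% at 1 mM glucose. The lowest shares were in the 2 libraries that stood apart. The mean CPM of the shorter form differed between 10 mM and 1 mM glucose by -0.00 on the log2 scale, against -0.29 for the longer form, with no test. Without the 2 libraries these differences were -0.22 for the shorter and -0.40 for the longer form.

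Other genes of the same steps were taken from lists. Over all genes tested, 67.5% were called for glucose and 13.7% for acetate. Of 12 further carrier genes of the SLC2A and SLC5A families 5 were tested, and 1 was called lower and none higher at 10 mM against 1 mM glucose. This was SLC5A2, a sodium-coupled carrier of the kidney (-0.51 ± 0.08, adjusted p = 6.0e-05), which shares 587 exon bases with C16orf58 on the opposite strand. C16orf58 was also lower (-0.54, adjusted p = 2.3e-06), at 80.1 ± 4.22 CPM at 10 mM glucose, 100.4 ± 0.896 CPM with acetate and 116 ± 9.93 CPM at 1 mM glucose, and reads of the pair cannot be told apart without the strand. With acetate none of the 5 was called by edgeR, while 3 had an unadjusted p under 0.05 and the DESeq2 Wald test called 2. The acetate count ran from 0 to 4 over 23 alternatives, with 4 when the length and GC trend was removed and 2 without replicate 2 at 1 mM glucose, where SLC5A2 was called (-0.31, adjusted p = 0.0125). The glucose count ran from 1 to 3, with 3 without replicate 3 at 1 mM glucose. Of 6 other kinases and PFKFB genes 3 were tested, and HKDC1, a gene for a further hexokinase, was called lower in both comparisons. It had 0.239 ± 0.0833 CPM at 10 mM glucose, 1.13 ± 0.175 CPM with acetate and 1.66 ± 0.245 CPM at 1 mM glucose (SD, n = 4 each), on 4 to 9 counts per library at 10 mM glucose, with log2 fold changes of -2.77 ± 0.23 for glucose (adjusted p = 7.8e-08) and -0.56 ± 0.17 for acetate (adjusted p = 0.0447). The acetate call was lost in 14 of 22 alternatives. The glucose count of this list was 2 without the 2 libraries that stood apart.

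Phosphofructokinase itself, the enzyme that fructose 2,6-bisphosphate activates, split by subunit. All 4 genes tested of this list of 7 were called for glucose, 1 higher and 3 lower, beside 67.5% of all genes tested. For acetate the share over all genes tested was 13.7%. PFKL, the liver subunit, rose (0.44 ± 0.06, adjusted p = 1.4e-05), and PFKP, the platelet subunit, fell (-0.61 ± 0.06, adjusted p = 1.8e-07). PFKM, the muscle subunit, was lower (-0.12 ± 0.05, adjusted p = 0.0342), as was C12orf5 (-0.15, adjusted p = 0.0482), the fructose bisphosphatase TIGAR, which is named here after its value was seen and whose call was lost in 14 of 23 alternatives. With library totals PFKM gave 0.03 and was not called, and 7 further alternatives lost its call. With the length and GC trend of each library removed PFKL gave 0.23 (adjusted p = 0.0018). With acetate PFKM was higher (0.25 ± 0.05, adjusted p = 0.0026) and PFKP lower (-0.18 ± 0.06, adjusted p = 0.0460), a call lost in 13 of 23 alternatives.

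Below these steps, 9 of 14 tested genes of lower glycolysis and lactate export were called higher at 10 mM glucose and 2 lower. Their median on the log2 scale was 0.29. Over all genes tested, 33.7% were called higher and 33.8% lower, and for acetate 6.65% were called higher and 7.09% lower. LDHA, which makes lactate from pyruvate, rose by 1.36 ± 0.07 (adjusted p = 2.8e-10), the mutase PGAM1 by 0.86 ± 0.08 (adjusted p = 1.4e-07) and the kinase PGK1 by 0.51 ± 0.05 (adjusted p = 6.3e-07). The genes that fell, named after their values were seen, were ENO2 at -0.60 and the lactate carrier SLC16A1 at -0.37. With acetate 1 of the 14 was called, PKM2, lower at -0.22 (adjusted p = 0.0127), and the median was -0.04. PKM2 is named after its value was seen, and its call was lost with only the 8 libraries compared. The number called in this list with acetate ran from 0 to 5 over 23 alternatives, with 4 without the 2 libraries that stood apart, 2 without replicate 2 or without replicate 3 at 1 mM glucose, and 3 without replicate 1 of the acetate group. LDHA, PGAM1 and PGK1 gave 0.01, 0.06 and -0.04 with acetate, and none of them was called.

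**Figure D5:**
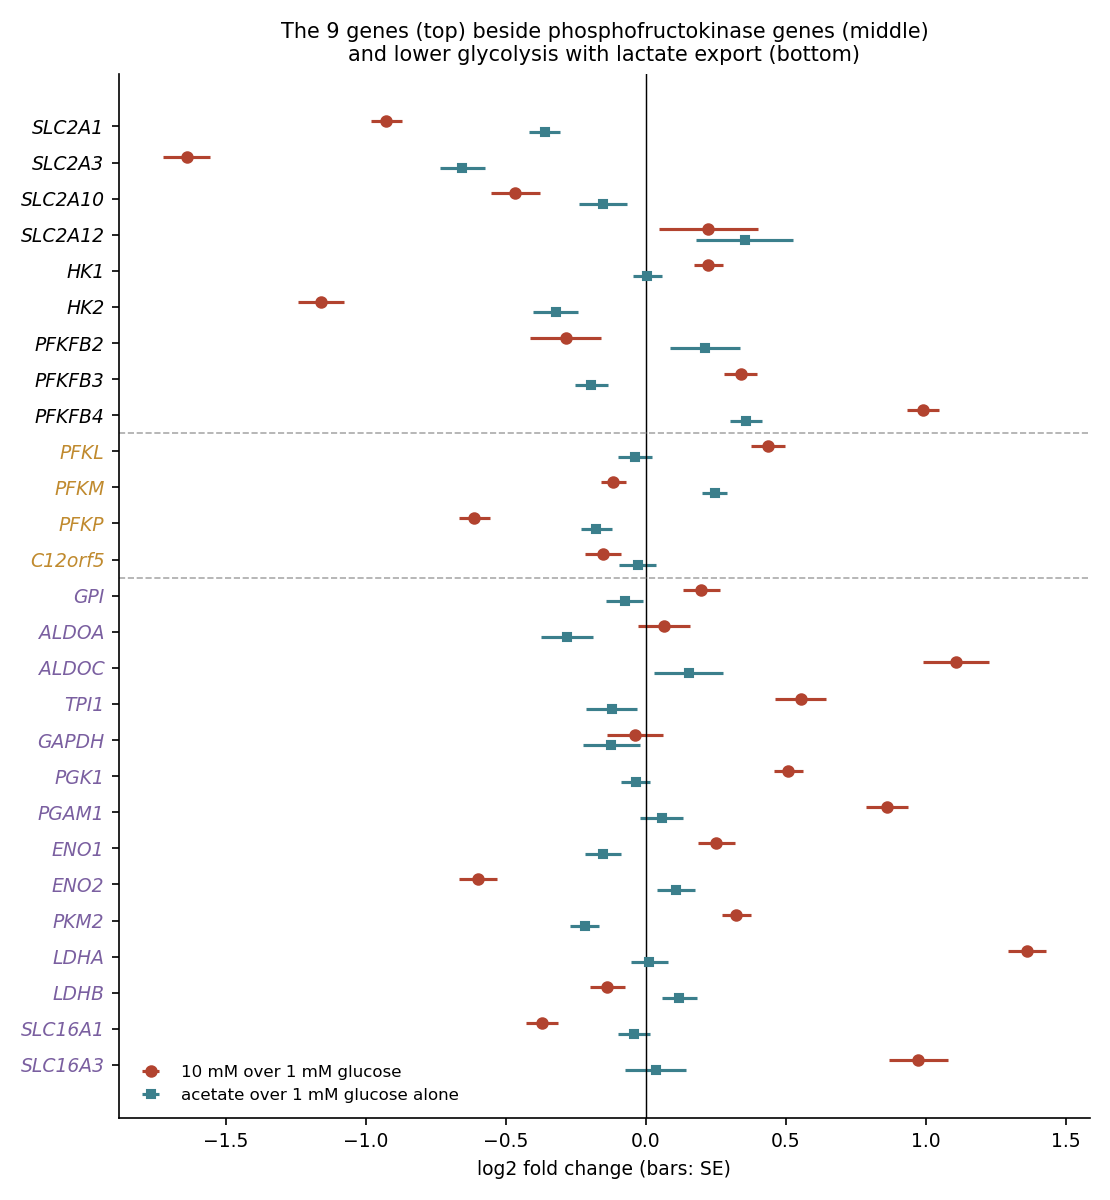
Log2 fold change with its SE (horizontal axis) for 10 mM over 1 mM glucose (circles) and acetate over 1 mM glucose alone (squares), for the 9 genes, 4 genes of phosphofructokinase control and 14 of lower glycolysis and lactate export (rows). LDHA is at 1.36 for glucose and 0.01 for acetate, and both comparisons share the 1 mM glucose libraries.

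A further list of 9 genes held transcription factors known to act on members, their partners, and TXNIP and ARRDC4, which are not transcription factors. Of the 9, 8 were tested, and 3 were higher and 4 lower at 10 mM glucose. The share called over all genes tested was 67.5% for this comparison. For acetate it was 13.7%, with 6.65% higher and 7.09% lower. TXNIP, an arrestin-like protein that promotes the removal of GLUT1 from the cell surface and is itself a glucose-responsive target of MondoA, had 121 ± 4.54 CPM at 10 mM glucose, 5.51 ± 0.437 CPM with acetate and 6.63 ± 0.652 CPM at 1 mM glucose (SD, n = 4 each; log2 fold change for glucose 4.19 ± 0.08, adjusted p = 9.4e-15). Its relative ARRDC4 rose by 1.53 ± 0.11 (adjusted p = 1.5e-08). MYC had 19.8 ± 1.09 CPM at 10 mM glucose, 93.8 ± 2.19 CPM with acetate and 125 ± 8.73 CPM at 1 mM glucose (-2.66 ± 0.06, adjusted p = 1.6e-13). The rest of those called, named after their values were seen, were MLXIP, which encodes MondoA, at 0.29 (lost in 7 of 23 alternatives), its partner MLX at -0.35, and the hypoxia-inducible subunits HIF1A at -0.69 and EPAS1 at -1.77. With acetate 3 were called lower and none higher, namely MYC at -0.41 (adjusted p = 4.1e-04), EPAS1 at -0.57 (adjusted p = 0.0067) and TXNIP at -0.27 (adjusted p = 0.0495, lost in 14 of 23 alternatives).

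The genes whose pattern over the 12 libraries was most like that of 3 members were found among 11189 genes of at least 5 CPM, by the root mean square (RMS) difference of log2 CPM after each gene's mean was removed. For SLC2A1 these were RHOB, PREB and MFSD2A, the last a carrier of lysolipids at the blood-brain barrier, at RMS differences of 0.06 each. For HK2 they were STX3, PGM3, an enzyme of the hexosamine pathway, and ERRFI1, a feedback inhibitor of the EGF receptor, at 0.06 to 0.07. For PFKFB3 they were RIPK1, a kinase of death receptor signaling, CUEDC1 and MAP3K3, at 0.03 to 0.06. SLC2A1 had 82 genes within 0.1 of it, PFKFB3 had 102 and HK2 had 10.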

How the data were processed

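RNA of LN229 cells was sequenced by the authors in 12 libraries, 4 per medium, after Trizol extraction and standard Illumina library preparation, per the labels' protocols. The deposited values are raw whole-number counts for 34917 RefSeq transcripts per library, with no normalization. The build is hg19, per the submitters' processing notes. The aligner, counting program and strand setting were not given in the sources used here. Transcripts of a gene share reads, so 1 stood for each gene: the one marked by the authors for 20895 of 22257 genes, otherwise the one with the highest total.

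From the deposited counts, CPM were computed in edgeR 4.0.16 (R 4.3.3) with TMM scaling, and CPM per kb with transcript lengths from GENCODE v29, whose build differs from that of the counts and gave no coordinates for them. The 12 libraries were fitted together after filterByExpr, with 1 mean per group, and tested by the quasi-likelihood F test with Benjamini-Hochberg adjustment over 14416 genes. The third comparison, 10 mM glucose against acetate, also tests how the first and second differ. The SE comes from the F statistic and the 95% interval from the same fit. Deposited counts as log2 CPM (prior count 2) served for likeness and deviations. The labels do not say whether replicates were separate cultures, so p-values measure only how far these libraries differ, which may be technical. No pair of replicates agreed within sampling noise.

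The members and the lists were chosen with earlier results of these data known. The named genes are the 9 members, the up to 3 called genes of each list with the smallest p for glucose, TXNIP, SLC2A14 and the 3 genes most like SLC2A1, HK2 and PFKFB3; exceptions are stated. Alternatives were DESeq2 1.42.0 size factors and Wald test, library totals, other filters and transcript choices, the 8 libraries compared, leaving out libraries, a length and GC trend removed by a spline with 5 degrees of freedom, and the replicate number as a block. The procedure was tested on simulated data. Promoter windows are RefSeq's, with no link to the counts.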

Additional observations from a re-analysis of the deposited data

Results flagged for a closer look

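Single libraries lay far from the others of their group in 3 of 42 sets of 4 libraries. A set held a gene's level, a ratio of genes within a family or the PFKFB2 transcript share, within a group. The measure was Dixon's 95% value for the gap over the range, which about 1 in 20 passes by chance. All 3 were gene levels. PFKFB2 with acetate was lowest in replicate 1, at 27.8 CPM, against 36.7 to 38.4 CPM in the other replicates. PFKFB3 with acetate was also lowest in replicate 1, at 76.0 CPM, against 86.9 to 89.1 CPM. That library is one of those whose genes deviated with transcript length. SLC2A1 at 10 mM glucose was highest in replicate 3, at 210.1 CPM, against 193.5 to 196.3 CPM in the others, and all 4 were below every library of the other media.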

How the results depend on the processing

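In 23 alternatives, the members called numbered 7 or 8 for 10 mM against 1 mM glucose and 8 in each for 10 mM glucose against acetate. With acetate against 1 mM glucose they numbered 3 to 6, with 3 when only the 8 libraries compared were fitted and when a replicate was left out (3 to 5). Over all genes tested, the shares called as reported were 67.5%, 62.8% and 13.7% in the same order. All genes called ran from 7988 to 10524 for 10 mM against 1 mM glucose. For 10 mM glucose against acetate they ran from 7490 to 10103. All genes called with acetate numbered 1980 as reported, 1056 with only the 8 libraries compared, 3728 without the 2 libraries that stood apart, 3903 after removal of the length and GC trend, 1196 to 2956 when a replicate was left out. The cause of these shifts was not tested.

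PFKFB3 with acetate lost its call with library totals (-0.16), no filter (-0.19) and only the 8 libraries compared (-0.19), and when any library but replicate 3 at 1 mM glucose was left out (-0.23 to -0.14). HK2 with acetate lost it with the 8 libraries (-0.31) and without replicate 1 at 1 mM glucose (-0.40 to -0.27 when a replicate was left out). PFKFB2 for glucose gained a call with the DESeq2 Wald test (-0.29), the 8 libraries (-0.29), the 2 libraries left out (-0.40) and the trend removed (-0.41), and without replicate 3 at 1 mM glucose or replicate 1 with acetate (-0.40 to -0.20). With acetate PFKFB2 gained one with the 2 libraries left out (0.19), and with the block and the trend removed together it gained one for glucose and for acetate, given with the block values. Uncalled values near 0 changed sign: HK1 with acetate was -0.0014 with DESeq2 size factors, -0.0015 with the DESeq2 Wald test and -0.0178 to 0.0422 when a replicate was left out. SLC2A12 for 10 mM glucose against acetate was 0.0030 with the 2 libraries left out and -0.23 to 0.0036 when a replicate was. SLC2A12 could not be tested at a minimum of 5 CPM. Outside the members, sign changes were PFKM for glucose (0.0253) and, for acetate, PGK1 (0.0022) and C12orf5 (0.0084) with library totals. ARRDC4 with acetate was 0.0563 with the 2 libraries left out, and LDHA -0.0051 with the trend removed. Leaving out a replicate gave ranges for acetate of -0.0343 to 0.0737 for LDHA, -0.0776 to 0.0018 for PFKL, -0.0061 to 0.12 for PGAM1, -0.0702 to 0.0221 for C12orf5 and -0.173 to 0.0028 for MLXIP.

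Replicate numbers did not pair the samples: over 12 pairs of same-numbered libraries the correlations of deviations ran from -0.36 to 0.27, with 3 over 0.1. With the replicate number as a block, 9613, 1780 and 8899 genes were called for glucose, acetate and 10 mM glucose against acetate. The replicate block gave PFKFB3 with acetate -0.20 (adjusted p = 0.0664). With the block and the trend removed together, 3538 genes were called for acetate, PFKFB2 was called for glucose at -0.41 (adjusted p = 2.8e-05) and for acetate at 0.16 (adjusted p = 0.0458), and LDHA with acetate was -0.00100.

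Depth limits SLC2A12, at 29 to 56 counts, and the strand setting, aligner and origin of the replicates were not stated.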
